A study of Mus musculus with 2 samples.

Results

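Leydig cells are the steroid-producing cells between the seminiferous tubules. They were selected in a single-cell RNA sequencing table of mouse testis by 4 transcripts of androgen synthesis. A barcode was chosen by the rule that the raw counts of unique molecular identifiers (UMIs) of Cyp17a1, Cyp11a1, Hsd3b1 and Star summed to at least 10. The rule took 73 of 28245 barcodes, a share of 0.258% (95% interval 0.203% to 0.325%, exact binomial). The levels of those 4 genes are therefore a description of the choice and not a finding. Intervals here and below cover counting error only.

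The study profiled total testicular cells of adult mice of the strain labelled C57BL/CJ;ICR on a droplet platform with 3′ chemistry. One library is labelled WT (wild type) and the other miR-202-/-, a knockout of a miRNA, with the number of mice behind each not given. Testes were dissociated by collagenase and then trypsin with a slow spin of the tubules in between, and FACS removed debris, so shares of barcodes are not shares of cells in the testis. Both libraries sit in a single deposited table under barcode suffixes 1 and 2, called marks below. Which suffix belongs to which genotype is not stated, so values are given by mark, the genotypes are not compared and no test was possible.

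Leydig cells take up or make cholesterol, and Star carries it to the inner mitochondrial membrane. There Cyp11a1 cuts its side chain to give pregnenolone, with electrons passed on by Fdxr and Fdx1. The 3-beta-hydroxysteroid dehydrogenases Hsd3b1 and Hsd3b6, then Cyp17a1 and Hsd17b3 in the endoplasmic reticulum, lead on to testosterone. Luteinizing hormone drives this through its receptor Lhcgr and cyclic AMP, Nr5a1 is the nuclear receptor that controls many of the genes, and Insl3 is a peptide hormone of these cells.

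Under mark 1, 33 of 12935 barcodes passed (0.255%, 0.176% to 0.358%), and under mark 2, 40 of 15310 (0.261%, 0.187% to 0.356%). The intervals of the marks overlap almost wholly. The 73 barcodes held 779655 UMIs, from 3617 to 69390 per barcode with a median of 6344, and a median of 2775 genes. The median depth was 10800 UMIs under mark 1 and 5323 under mark 2, against 5736.5 in the 28172 other barcodes. Some barcode sequences occurred under both marks, 73 in the whole table. A single gated barcode had its sequence under the other mark too, and 0 sequences were gated under both.

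The label was held against Leydig genes that the rule did not use. Insl3 had a UMI in 70 of the 73 gated barcodes (95.9%) and in 113 of the 27081 barcodes with no gate UMI (0.417%). After every barcode was thinned to 3500 UMIs, which left none out, the shares were 90.4% and 0.233%. Fabp3, a fatty acid binding protein, had a UMI in 73 of 73. Hsd3b6 had one in 52, Lhcgr in 28 and Nr5a1 in 25. Of the 12 Leydig markers listed that are not gate genes, 11 were called higher than in the other barcodes, against 4.46 percent of all measured genes. With the gate genes included, 15 of 16 were called, and 10 of 16 with only the members of at most 10000 UMIs. The list was chosen with earlier results of these data known, and levels of genes that go with the gate genes were set by the choice. These shares and counts therefore describe the members and do not test the label. Scarb1, the receptor for high-density lipoprotein, was not called, at 41.0 against 15.8 CPM (UMIs of a gene per 1000000 UMIs of all barcodes of the class). Its ratio was 2.60 (1.78 to 3.68).

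**Figure D1:**
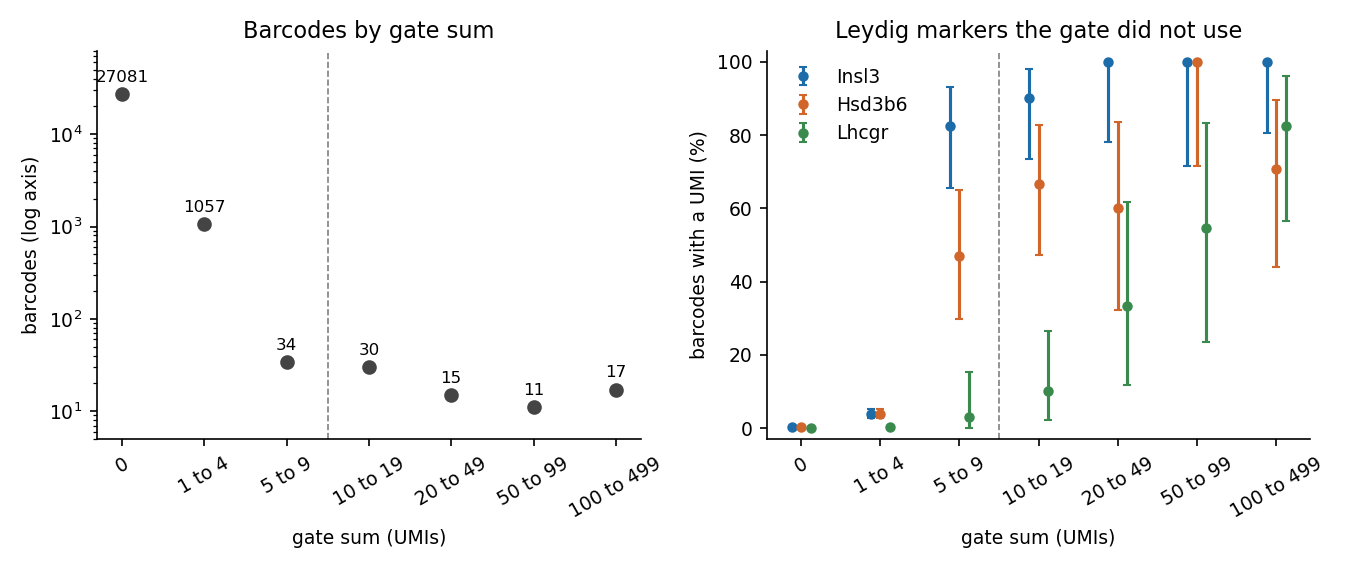
Left, number of barcodes (log axis) in bins of the gate sum in UMIs; right, percent of barcodes in each bin with a UMI of Insl3, Hsd3b6 or Lhcgr, with exact binomial 95% intervals. The dashed line is the minimum of 10 UMIs: Insl3 had a UMI in 28 of 34 barcodes just below it and in 27 of 30 just above it.

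The gate sum fell off without a gap. It was 0 in 27081 barcodes, 1 to 4 in 1057, 5 to 9 in 34, 10 to 19 in 30, 20 to 49 in 15, 50 to 99 in 11 and 100 or more in 17, with a highest value of 412. Just outside the minimum, the 19 barcodes with 7 to 9 gate UMIs had a median of 2 Insl3 UMIs, with Insl3 found in 18. Just inside it, the 15 barcodes with 10 to 12 had a median of 3, with Insl3 found in 14. The minimum thus leaves out barcodes that carry Insl3 much as the lowest gated ones do. The members held 77.9% of all gate UMIs in the table. The other 1414 lay in 1091 barcodes.

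The members were divided at 50 gate UMIs for the description below, a boundary set after the data had been seen and not a gap in the sum. The high-sum set has 50 or more gate UMIs and 28 barcodes, 15 under mark 1 and 13 under mark 2. The low-sum set has 10 to 49 and 45 barcodes, 18 and 27. The sets differed in depth, with medians of 12532 and 4992 UMIs, and in detected genes, with medians of 4093.5 and 2449. More than 10000 UMIs were found in 26 of 28 high-sum and 5 of 45 low-sum barcodes. The high-sum set held 83.3% of the members' gate UMIs and 56.9% of all their UMIs, so pooled levels mostly describe it.

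The 2 sets also differed in mitochondrial and nuclear RNA. The median mitochondrial share was 6.48% in the high-sum set and 0.451% in the low-sum set, and it exceeded 2% in 26 of 28 and 7 of 45. Malat1, a nuclear long noncoding RNA, had a median of 308.5 UMIs in the high-sum set and 2 in the low-sum set. Per 10000 UMIs of the barcode the medians were 231 and 3.91. At least 10 Malat1 UMIs were present in 26 of 28 and in 6 of 45 barcodes. In the other barcodes the median Malat1 count was 3, the median mitochondrial share 0.274% and the median depth 5736.5 UMIs. Most low-sum barcodes thus had little mitochondrial RNA or Malat1, much as the other barcodes did. In the low-sum set the 16 Leydig markers summed to 8855 CPM and 10 elongating spermatid markers to 56901 CPM. Per low-sum barcode the medians were 60 and 254 UMIs and the highest values 178 and 4545, so the spermatid sum leans on few barcodes. A few low-sum barcodes held most of that set's Malat1 UMIs, since 5 of them had 96.7% of these.

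**Figure D2:**
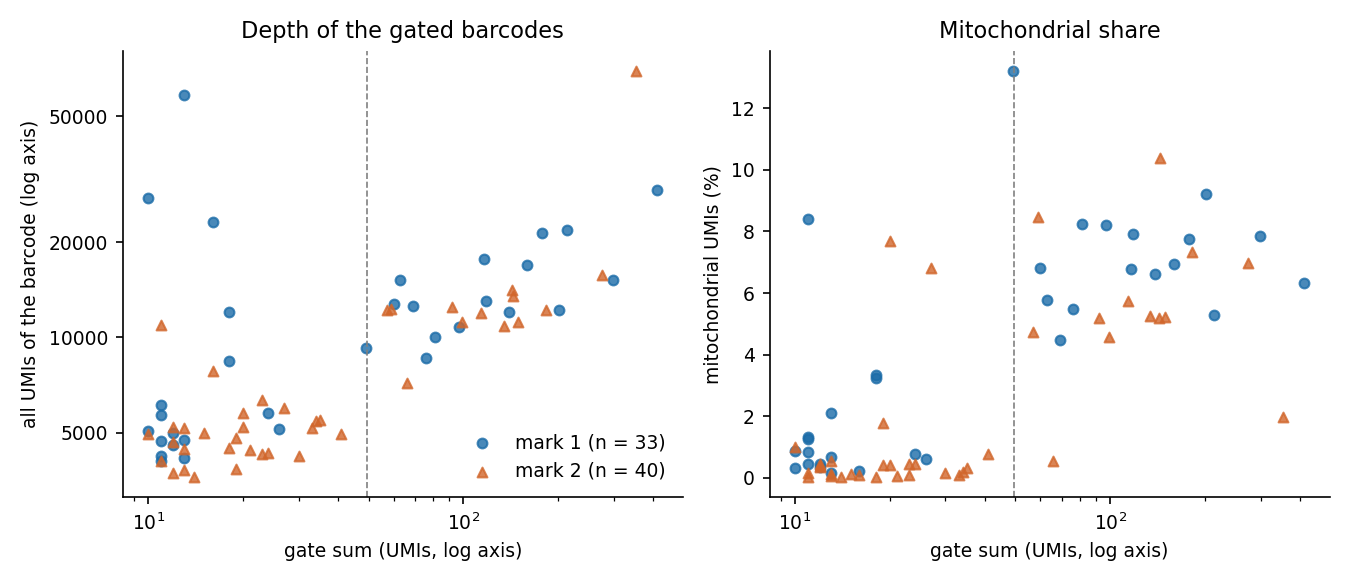
Each point is 1 of the 73 gated barcodes by gate sum (UMIs, log axis) and, left, all UMIs of the barcode (log axis) or, right, its mitochondrial share in percent; circles are mark 1 and triangles mark 2. Right of the dashed line at 50 UMIs, 26 of 28 barcodes have over 10000 UMIs and 26 of 28 over 2% mitochondrial UMIs.

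Transcripts of germ cells were present in every member. Prm1, a protamine that packs sperm DNA, had from 55 to 2992 UMIs per gated barcode with a median of 80. Protamine and transition protein UMIs together (Prm1, Prm2, Tnp1 and Tnp2) had a median of 176 in the high-sum set, 222 in the low-sum set and 255 in barcodes with no gate UMI. In 6 members they exceeded 500. The 10 elongating spermatid markers summed to 44320 CPM in the members and 88356 CPM in the others. Prm1 itself was at 15820 CPM in the members, 12442 CPM under mark 1 and 19917 CPM under mark 2, against 29869 CPM in the others. Without the 6 members over 500 such UMIs, Insl3 was at 2290 CPM in place of 2264 CPM, Hsd3b6 at 1235 CPM in place of 1031 CPM and Cyp17a1 at 3388 CPM in place of 3149 CPM.

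Markers of other somatic cells were far below their level in the gates of those cells. The lists hold the genes that chose those gates, so this contrast was set in part by the choice and is no test of purity. Against the other barcodes the Sertoli and stromal sums were higher in the members and the macrophage sum lower. Of 14 Sertoli markers in the table, 5 had 0 UMIs in the members (Cldn11, Sox9, Rhox5, Gata1 and Wt1), and the list summed to 562 CPM, against 123 CPM in the other barcodes and 5248 CPM in barcodes of a Sertoli gate. Of its members, Amhr2, Aard and Ctsl were called higher than in the other barcodes. Of 12 peritubular and stromal markers, 3 were at 0 (Acta2, Mgp and Col1a1) and 9 were found. Their sum was 226 CPM, against 23.7 CPM in the other barcodes and 10142 CPM in a stromal gate, and the median log2 ratio of the 9 measured genes to the other barcodes was 3.13. That median leans upward, because a scarce gene was measured only through a UMI in the members and the 3 at 0 are left out. Dcn, a matrix proteoglycan, was called higher at 68.0 CPM against 7.76 CPM and had a UMI in 12 members. Of 12 macrophage markers, 4 were at 0 (C1qc, Csf1r, Lyz2 and Tyrobp), with a sum of 28.2 CPM, against 49.97 CPM in the other barcodes and 8623 CPM in a macrophage gate. Of 8 endothelial markers 5 were at 0, of 8 markers of T or NK cells 7, and of 5 erythroid markers 4. Among 10 spermatogonium markers 5 were at 0, and Kit, a receptor also known from Leydig cells, was called higher at 85.9 CPM against 3.67 CPM.

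No doublet caller was run. As a count, 2 members passed the stromal gate as well, 0 the Sertoli gate and 0 the macrophage gate. The 2 that passed the stromal gate had 33 and 39 Star UMIs, 55 and 121 Cyp17a1 UMIs and 2 and 10 Cyp11a1 UMIs. Without them the pooled level of Star was 617 CPM in place of 682 CPM.

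The gate genes differed in how they made up the sum. Cyp17a1, which turns progestins into androgens (chr19:46667165-46673172, minus strand, GRCm38), gave 49.4% of the members' 4972 gate UMIs. Cyp11a1 (chr9:58006411-58027023, plus strand) gave 29.6%, Star (chr8:25806555-25815982, plus strand) 10.7% and Hsd3b1 (chr3:98852194-98859794, minus strand) 10.3%. All 4 genes were found in 43 members, 3 in 25, 2 in 4 and 1 in 1. Without Cyp17a1 in the sum, 48 barcodes would have reached 10 UMIs.

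Cyp17a1 had from 0 to 203 UMIs per member with a median of 12, or 3149 CPM (3026 to 3276). It was at 3105 CPM under mark 1 and 3202 CPM under mark 2, against 1.26 CPM in the others. Cyp11a1 had from 0 to 213 UMIs with a median of 8, or 1888 CPM against 1.20 CPM. Hsd3b1 had from 0 to 89 with a median of 1, or 658 CPM against 0.291 CPM. The 5 barcodes highest in Hsd3b1 held 54.4% of its UMIs, against 30.9% for Cyp17a1. Star had from 0 to 39 with a median of 4, or 682 CPM against 1.58 CPM. Star thus lay below Cyp17a1 and Cyp11a1 in the members but above all of them in the other barcodes, where it gave 36.6% of gate UMIs (34.0% to 39.1%). In barcodes of the stromal gate alone, all 8 gate UMIs were Star.

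Insl3 (chr8:71689214-71690575, plus strand) lies outside the rule. It had from 0 to 199 UMIs per member with a median of 8. In the high-sum set it ran from 9 to 199 with a median of 50, and in the low-sum set from 0 to 36 with a median of 4. The sets overlapped. In the other barcodes the highest value was 10 and the median 0. The pooled level was 2264 CPM (2159 to 2372) against 0.835 CPM, a ratio of 2711 (2385 to 3091). It was 2668 CPM under mark 1 (2515 to 2827) and 1774 CPM under mark 2 (1638 to 1919). Within the high-sum set the median was 59 UMIs under mark 1 and 36 under mark 2, with ranges of 28 to 199 and 9 to 100 that overlapped. Whether the marks differ beyond the spread between libraries cannot be known from 1 library each.

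The RefSeq promoter windows (GRCm38.p6, 250 bases before the start to 50 after it) of 3 genes are shown, Insl3 as the peptide hormone that the rule did not use and the Hsd3b pair because their levels differed between cells. The windows are chr8:71689002-71689301 (plus strand) for Insl3, chr3:98859745-98860044 (minus strand) for Hsd3b1 and chr3:98814394-98814693 (minus strand) for Hsd3b6. All are written 5′ to 3′ on the gene's strand, with the annotated first base in capitals, and in Insl3 also a match to CAAGGTC.
Insl3: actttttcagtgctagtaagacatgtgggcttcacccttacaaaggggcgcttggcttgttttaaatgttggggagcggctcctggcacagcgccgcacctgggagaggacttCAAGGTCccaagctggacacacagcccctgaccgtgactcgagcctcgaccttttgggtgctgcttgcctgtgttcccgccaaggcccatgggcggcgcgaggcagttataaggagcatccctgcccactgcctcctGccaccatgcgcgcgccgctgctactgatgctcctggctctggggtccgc
Hsd3b1: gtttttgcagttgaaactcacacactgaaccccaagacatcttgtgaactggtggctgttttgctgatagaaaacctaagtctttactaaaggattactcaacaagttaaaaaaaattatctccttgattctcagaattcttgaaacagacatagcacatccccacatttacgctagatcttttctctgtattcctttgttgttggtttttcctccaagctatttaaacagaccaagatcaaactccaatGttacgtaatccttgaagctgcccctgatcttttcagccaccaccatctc
Hsd3b6: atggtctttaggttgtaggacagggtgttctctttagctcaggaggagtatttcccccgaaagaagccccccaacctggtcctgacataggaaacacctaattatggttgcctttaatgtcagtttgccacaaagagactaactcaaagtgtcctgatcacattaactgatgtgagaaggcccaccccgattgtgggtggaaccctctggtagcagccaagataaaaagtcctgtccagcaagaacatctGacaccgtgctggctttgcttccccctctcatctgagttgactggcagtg

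The element AAGGTCA, a sequence that Nr5a1 is known to bind, was searched on both strands of the windows of the gate genes, Insl3, Hsd3b6 and Hsd17b3. Of these 7 genes, 5 had an entry in the table, in 6 windows (Cyp11a1 with 2 starts, Hsd3b1, Insl3, Hsd3b6 and Hsd17b3). Cyp17a1 and Star had none, and the 2 Cyp11a1 windows (chr9:57997774-57998073 and chr9:58014702-58015001) do not cover the Cyp11a1 start given above. The element was in 0 of the 6 windows. Of all 32851 promoter windows, 1550 held it (4.72%), as did 26 of 706 windows of genes called higher in the members (3.68%). CAAGGTC, which overlaps it by 6 bases and was searched after that result was known, was in the Insl3 window alone among the 6. It starts 137 bases before the first base annotated in RefSeq, which lies downstream of the Insl3 gene start given above. All windows held it in 1301 cases (3.96%), and those of genes called higher in 39 (5.52%). A match is a description of letters and not a binding site.

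Across the genome, 15571 genes could be measured between the members and the other barcodes. A gene was called when its CPM differed at least 2-fold the same way under both marks, with 50 CPM and 20 UMIs in the higher class under each. The call describes these libraries. With it, 694 genes were higher in the members (4.46 percent of those measured) and 240 were lower (1.54 percent). The median log2 ratio of the 2804 genes with 50 or more UMIs in both classes was -0.20. Scaled so that this median was 0, 747 genes were higher and 100 lower. With only the 28 high-sum barcodes, 602 genes were higher (4.32 percent) and 1133 lower (8.12 percent), so the balance of higher and lower turned.

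Among genes with at least 100 CPM in the members under both marks, the largest ratios were led by Insl3, followed by Hsd17b3, Cyp17a1, Klk1b24, Hsd3b1, Sult1e1, Ephx1, Agt, Hsd3b6 and Akr1cl. Next came Cyp11a1, Bhmt, Prlr, Lcn2, Ces1d, Klk1b21, Serpina3c, Serpina3g, Vcam1 and Ptgds. Their ratios ran down from 2711 to 940. At lower levels, Scd1 (ratio 1203) and Lhcgr (1021) had ratios within this range. Because the gate genes chose the barcodes, ratios of any gene that goes with them were set by the choice and carry no test. By pooled level, the 10 highest in the members were Prm1, Malat1, Prm2, Ptgds, mt-Co3, mt-Co1, Gstm1, Tnp2, Lcn2 and mt-Atp6. Under mark 1 Malat1 was above Prm1, at 20730 CPM. Germ cell, mitochondrial and nuclear RNAs thus made up most of that list, with Ptgds, Gstm1 and Lcn2 among them.

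**Figure D3:**
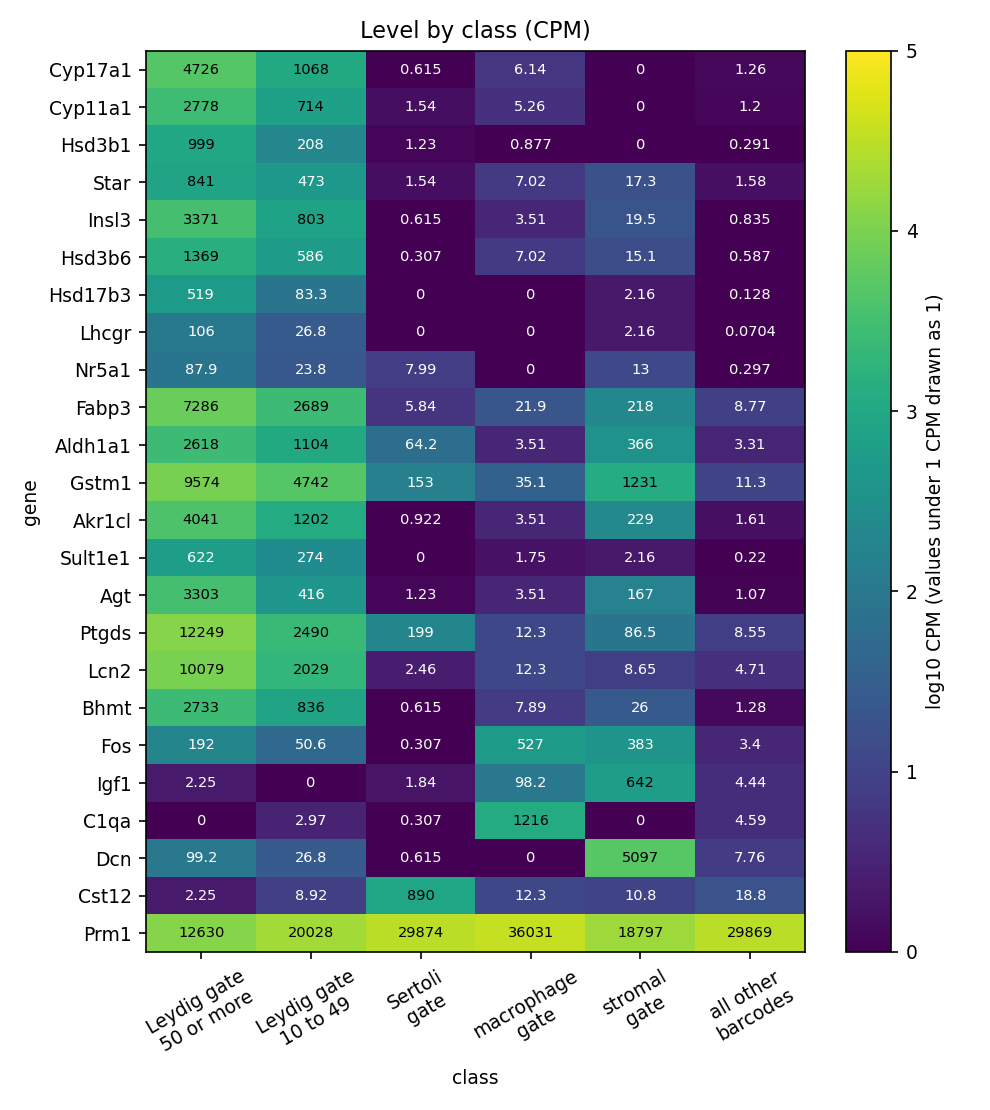
Level of 24 genes (rows) in 6 classes of barcodes (columns) in CPM, printed in each cell and shaded on a log10 scale with values under 1 CPM drawn as 1. The rows from Cyp17a1 to Bhmt are highest in the set with 50 or more gate UMIs and next highest in the set with 10 to 49, while Prm1 is lowest in the first class, at 12630 CPM.

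Among the other enzymes and electron donors of steroid synthesis, 8 of 17 measured genes were called higher and 0 lower, with a median log2 ratio of 5.14. Over all measured genes that median was 0.04, with 4.46 percent called higher and 1.54 percent lower. Those shares apply to each later list set against the other barcodes. A scarce gene was measured only through a UMI in the members, so the medians of this list, the later lists and all genes lean upward. Here 2 genes at 0 UMIs in the members are left out. Hsd17b3, which makes testosterone from androstenedione, had from 0 to 20 UMIs per member with a median of 1, or 331 CPM against 0.128 CPM. Sult1e1, an estrogen sulfotransferase, was at 472 CPM against 0.220 CPM. Akr1cl, an aldo-keto reductase, had a UMI in 73 of 73 members, from 1 to 144, and 2817 CPM against 1.61 CPM. The electron carriers had smaller ratios, with Fdxr at 276 CPM against 3.57 CPM and Fdx1 at 1021 CPM against 127 CPM.

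Enzymes of other steroid routes were low or absent. Cyp19a1, the aromatase that makes estrogens, had 0 UMIs in the members, which allows up to 3.85 CPM. At 1.37 CPM in the others, a difference was not detectable at this depth. Cyp11b1, an enzyme of glucocorticoid synthesis, also had 0. Cyp21a1, another adrenal enzyme, had 32 UMIs in 7 members, and 26 of the 32 were in 1 barcode of mark 1. The next highest had 1. That barcode also had the highest gate sum of the table, 412, with 199 Insl3 UMIs, 89 Hsd3b1 UMIs, 0 Hsd3b6 UMIs and 20 of the members' 43 UMIs of Socs3, an inhibitor of cytokine signalling. It was picked out after its values were seen.

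Hsd3b1 and Hsd3b6 encode the same enzyme step and varied against each other. Hsd3b6 (chr3:98805504-98814443, minus strand) had from 0 to 68 UMIs per member with a median of 3, or 1031 CPM against 0.587 CPM. Of the 28 high-sum barcodes, 9 had Hsd3b6 alone, with 7 to 68 UMIs and 0 of Hsd3b1. Hsd3b1 alone was found in 5, with 2 to 89 UMIs and 0 of Hsd3b6. Both were found in 14, and none had neither. Cells with Hsd3b6 alone were 7 of 15 under mark 1 and 2 of 13 under mark 2. Those with Hsd3b1 alone were 2 of 15 and 3 of 13.

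Across the 28 barcodes the rank correlation of the 2 shares was -0.57, and across all 73 it was -0.20, both as descriptions. Cyp17a1 and Cyp11a1 had 0.44 in the same 28 barcodes. These correlations are over cells of 2 libraries and share their depth. Hsd3b1 also counts towards the gate, and Hsd3b6 does not. The pair are close paralogues, and their transcripts shared 38 windows of 50 bases, 2.10% to 2.55% of each transcript. In the last 500 bases, where 3′ chemistry reads, 0 of 451 windows were shared. Reads outside the shared stretch can be told apart, and how the rest were counted is not stated. The promoter windows printed above had the same base at 88 of 300 positions (29.3%), read side by side without gaps.

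**Figure D4:**
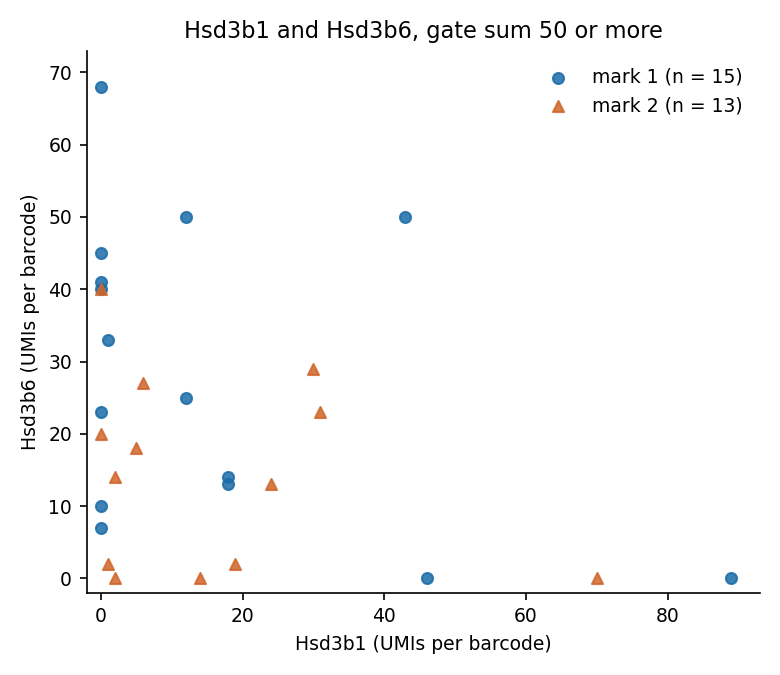
Hsd3b6 against Hsd3b1 in UMIs per barcode for the 28 gated barcodes with a gate sum of 50 or more; circles are mark 1 and triangles mark 2. On the left axis 9 barcodes have 0 Hsd3b1 and 7 to 68 Hsd3b6 UMIs, and on the lower axis 5 have 0 Hsd3b6 and 2 to 89 Hsd3b1 UMIs.

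Genes that supply cholesterol were called higher in part. Of 20 measured genes of uptake, storage and transport, 8 were called higher and 0 lower, with a median log2 ratio of 3.34. They include Abca1, a cholesterol exporter, at 146 CPM against 1.26 CPM, and Tspo, an outer mitochondrial membrane protein, at 171 CPM against 1.88 CPM. Soat1, which makes cholesterol esters for storage, was at 123 CPM against 8.72 CPM. Of 24 genes of cholesterol synthesis, 8 were called higher and 0 lower, with a median of 3.47. Msmo1, a demethylating oxidase of the later steps, was at 255 CPM against 1.53 CPM and Ebp, a sterol isomerase, at 119 CPM against 1.42 CPM. Against macrophages, 4 of 17 measured genes of uptake, storage and transport were higher and 1 lower, with a median of -0.10. Over all measured genes 5.8 percent were higher and 1.91 percent lower there.

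Of 21 genes of hormone receptors and cyclic AMP signalling, 4 were called higher and 0 lower, with a median log2 ratio of 2.88. The shares over all measured genes were 4.46 percent higher and 1.54 percent lower. Prlr, the prolactin receptor, had from 0 to 29 UMIs per member with a median of 2, or 530 CPM against 0.376 CPM. In stromal barcodes Prlr was at 130 CPM, so the ratio to them was 4.08. Lhcgr had from 0 to 7, and 71.8 CPM against 0.0704 CPM. It had a UMI in 20 of 28 high-sum and 8 of 45 low-sum barcodes, and in 9 of 28 and 6 of 45 after thinning to 3500 UMIs. Gnas, a stimulatory G protein subunit, was at 705 CPM against 26.4 CPM.

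Of 18 transcription factors, 4 were called higher and 1 lower than in the other barcodes, with a median of 2.54. The shares over all measured genes were 4.46 and 1.54 percent. Nr5a1 had from 0 to 6 UMIs and 60.3 CPM against 0.297 CPM. It had a UMI in 18 of 28 high-sum and 7 of 45 low-sum barcodes, and in 7 of 28 and 2 of 45 after thinning. Cebpb was at 61.6 CPM against 1.18 CPM, and Zbtb20 at 156 CPM against 9.94 CPM. Klf4, also known from spermatids, was lower at 48.7 CPM against 116 CPM. Against stromal cells 1 of 16 measured factors was higher and 5 were lower, while over all measured genes 4.03 percent were higher and 1.44 percent lower.

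Of 15 secreted factors, 6 were called higher and 0 lower, with a median log2 ratio of 3.85. Ptgds, a prostaglandin D synthase, had from 0 to 808 UMIs per member with a median of 21, or 8041 CPM against 8.55 CPM. Agt, the precursor of angiotensin, had from 0 to 273 with a median of 3, or 2059 CPM against 1.07 CPM. The 5 barcodes highest in Ptgds held 40.0% of its UMIs. Cxcl12, a chemokine, was at 74.4 CPM against 0.593 CPM. Igf1, a growth factor, had 1 UMI in the 73 members, while the stromal gate had 297 (642 CPM) and the macrophage gate 112 (98.2 CPM). It was called lower in the members than in both.

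The tissue kallikreins, serine proteases encoded in a cluster, went both ways, with 3 of 11 higher, 2 lower and a median log2 ratio of -0.46. The shares over all measured genes were 4.46 percent higher and 1.54 percent lower. Klk1b24 was at 268 CPM against 0.113 CPM, Klk1b21 at 266 CPM against 0.217 CPM and Klk1b27 at 137 CPM against 0.196 CPM. Klk1b8 was lower at 96.2 CPM against 228 CPM, and Klk1b9 at 29.5 CPM against 68.0 CPM. The 5 highest barcodes held 49.8% of Klk1b24, whose UMIs per member ran from 0 to 32 with a median of 1. These genes are alike in sequence, so reads may have been split among them or lost. The same limit holds for the glutathione transferases and the Serpina3 genes.

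Of 30 genes of detoxification and redox, 17 were called higher and 0 lower, with a median log2 ratio of 4.91. Ephx1, an epoxide hydrolase, was at 572 CPM against 0.272 CPM and Ces1d, a carboxylesterase, at 249 CPM against 0.193 CPM. Gstm1, a glutathione transferase, had from 7 to 410 UMIs per member with a median of 45, or 7491 CPM against 11.3 CPM. It was found in all 73. Aldh1a1, which makes retinoic acid, had from 0 to 106 with a median of 12, or 1965 CPM against 3.31 CPM. Against the 3 somatic gates the list also had 15, 16 and 15 higher calls of 28 measured genes (Sertoli, macrophage and stromal), with at most 1 lower. Over all measured genes 4.54, 5.8 and 4.03 percent were higher.

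Of 17 enzymes of the smooth endoplasmic reticulum and of lipids, 8 were higher and 1 lower, with a median log2 ratio of 4.43. Scd1, a fatty acid desaturase, was at 84.7 CPM against 0.0704 CPM, and Fads2 at 544 CPM against 1.66 CPM. Fabp3 had from 1 to 317 UMIs per member with a median of 30, or 5304 CPM against 8.77 CPM. Dgat2, which makes triglycerides, was lower at 51.3 CPM against 123 CPM.

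Immediate early and stress genes were called higher in 7 of 17 cases and lower in 0, with a median log2 ratio of 4.60. Fos, a transcription factor induced fast by many stimuli, was at 131 CPM against 3.40 CPM and Ier2 at 69.3 CPM against 1.51 CPM. The list had from 0 to 202 UMIs per member with a median of 6. Fos had a UMI in 16 members, with 0 to 25, and 5 barcodes held 71.6% of it. Against the macrophage gate 0 of 18 were higher and 8 lower, and against the stromal gate 0 of 15 were higher and 5 lower. Against the Sertoli gate 7 of 16 were higher. Over all measured genes 1.91 percent were lower against macrophages, 1.44 percent lower against stromal cells and 4.54 percent higher against Sertoli cells.

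Mitochondrially encoded mRNAs were called higher in 10 of 13 cases and lower in 0, with a median log2 ratio of 2.23. The mRNA of cytochrome b, mt-Cytb, had from 0 to 246 UMIs per member with a median of 6, or 3871 CPM against 692 CPM. Against the Sertoli gate 0 were higher and 0 lower, with a median of 0.13. The list counts above rest largely on the deeper barcodes, as do the calls over all genes. With only the 42 members of at most 10000 UMIs, 123 of 12392 measured genes were called higher (0.993 percent). Among the lists, the higher calls were 0 for mitochondrial mRNAs, kallikreins and transcription factors and 1 each for cholesterol synthesis and immediate early genes. They were 2 each for cholesterol transport, hormone receptors and lipid enzymes and 4 for other steroid enzymes. Detoxification and redox had 11 and secreted factors 5. The Leydig markers, gate genes included, had 10 of 16. The rule asks for 20 UMIs under each mark, which this smaller pool of UMIs reaches only at a higher CPM. A gene without a call there is thus not shown to be at the level of the other barcodes.

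The 3 somatic gates served as the nearest comparison. Sertoli cells were gated on Cldn11, Cst12, Cst9 and Defb45 (375 barcodes), stromal cells on Dcn, Gsn, Mgp and Col1a2 (76) and macrophages on C1qa, C1qb and C1qc (99), each without barcodes of another gate. Against Sertoli cells 502 of 11068 measured genes were higher (4.54 percent) and 114 lower (1.03 percent). Against macrophages 518 of 8931 were higher (5.8 percent) and 171 lower (1.91 percent). Against stromal cells 309 of 7659 were higher (4.03 percent) and 110 lower (1.44 percent). The genes of each gate are set by its choice.

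Against Sertoli cells the largest ratios were those of Cyp17a1, Insl3, Hsd3b6, Bhmt and Akr1cl. Bhmt, which remethylates homocysteine, was at 1915 CPM against 0.615 CPM. On the other side stood Gatm, Cst12, Tslrn1, 1700011M02Rik and Tsx, with Gatm, an enzyme of creatine synthesis, at 1.28 CPM against 280 CPM. Against macrophages Akr1cl, Hsd3b1, Ptgds, Insl3 and Agt led, and C1qa, Cd74, Lyz2, Ccl8 and H2-Aa were lowest. Lyz2 and H2-Aa had 0 UMIs in the members.

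For Gstm1 the stromal barcodes lay closest. It was at 7491 CPM in the members and 1231 CPM in stromal barcodes, a ratio of 6.09 (5.58 to 6.64), while the ratio was 48.9 (44.6 to 53.7) to Sertoli barcodes and 214 to macrophage barcodes. Nr5a1 was at 13.0 CPM in stromal barcodes, from 6 UMIs. The largest ratios were those of Lcn2, Cyp17a1, Cyp11a1, Sult1e1 and Hsd17b3. Lcn2, an iron-siderophore binding protein, was at 6608 CPM against 8.65 CPM. Cyp17a1 and Cyp11a1, both gate genes, had 0 UMIs in stromal barcodes. With 3 counts in place of 0, their ratios were 485 (166 to 2354) and 291 (99.4 to 1412). Fgl2, Igf1, Adamts5, Mgp and S100a6 were lowest.

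The makeup of the high-sum and low-sum barcodes was set side by side as UMIs per 100 gate UMIs, a comparison added after the data had been seen. It covered 83 genes, gate genes included, with 100 or more UMIs in the members and a ratio of at least 100 to the other barcodes. Their median low-sum to high-sum ratio was 1.19. The 6 genes below were picked after their values were seen and not by abundance, and Gsta3 had the highest ratio of the 83. The sets were made by the same gate sum that divides these values, so a ratio is not read against 1, and the genes are set against each other. Gsta3, a glutathione transferase, had 9.51 in the high-sum set and 29.2 in the low-sum set, a low-sum to high-sum ratio of 3.07 (2.61 to 3.62). Gstm1 had 102 and 193, a ratio of 1.88 (1.77 to 1.99). Insl3 had 36.1 and 32.6, a ratio of 0.904 (0.791 to 1.03). Lcn2 had 108 and 82.4, a ratio of 0.764 (0.703 to 0.828). Agt had 35.4 and 16.9, a ratio of 0.478 (0.399 to 0.569).

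Relative to each other, the 2 glutathione transferases were thus more abundant in the low-sum set, and Agt in the high-sum set, than Insl3. Under mark 1 the ratios were 2.09 for Gsta3, 1.47 for Gstm1, 1.09 for Insl3 and 0.407 for Agt. Under mark 2 they were 3.58 for Gsta3, 2.23 for Gstm1, 0.926 for Insl3 and 0.735 for Agt. Ptgds had ratios of 0.533 under mark 1 and 1.13 under mark 2. A single low-sum barcode held 321 of the 593 low-sum Ptgds UMIs of mark 2, so the ratio of mark 2 rests largely on that barcode.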

How the data were processed

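Droplet 3′ RNA sequencing covered total testicular cells from 2 mouse libraries, 1 per genotype. The values are raw UMI counts per gene and barcode, as deposited. Cell Ranger 1.3.1 and Seurat 3.2.2 with GRCm38 were used per the submitters' processing notes; how barcodes were filtered is not stated. The table held 20476 genes and 28245 barcodes, and 20088 symbols matched GENCODE M21 (GRCm38), which gave positions. Promoters came from RefSeq.

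UMIs were summed over the barcodes of a class and scaled to CPM, which compares a gene between classes and not genes per length. A gene was measured with at least 20 UMIs in both classes together, and with at least 1 UMI in the gated class or an expectation of at least 20 there. Intervals are 95% exact Poisson, Clopper-Pearson or conditional binomial, and a count of 0 was replaced by 3 counts over the class for a bound. With 1 library per genotype and marks tied to no genotype, no test was run. The calling step was checked on simulated counts. Python 3.11.15, numpy 2.4.6, scipy 1.17.1, pandas 2.3.3 and matplotlib 3.10.9 were used.

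The gate, members and gene lists were chosen with earlier results of these data known. Named genes are the 4 gate genes, Insl3, Hsd3b6, Hsd17b3, Lhcgr and Nr5a1, the members of largest ratio in each list, the 20 genes of largest ratio with at least 100 CPM under both marks, the 10 of highest CPM, and 5 each way per somatic gate. Other genes were named after their values were seen, as were the split at 50 gate UMIs, the comparison per gate UMI, the Hsd3b pair, the CAAGGTC motif and the alternatives by depth, protamine UMIs and single mark. Protein sequences were not used here. Results for some genes are not reported here.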

Additional observations from a re-analysis of the deposited data

How the results depend on the processing

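The number of gated barcodes was 43, 28 and 17 at a minimum of 20, 50 and 100 UMIs and 48 without Cyp17a1 in the sum, and by depth 31 had over 10000 UMIs and 42 at most that. The count of genes higher than in the other barcodes fell from 694 to 419 at a minimum of 100 UMIs and to 123 with only the members of at most 10000 UMIs, and stayed within 1.5 times of 694 under the other alternatives run. The count of genes lower, 240 as reported, changed under most alternatives. It was 869, 1133 and 988 at a minimum of 20, 50 and 100 UMIs, 527 with only members over 10000 UMIs and 106 with only those of at most that depth. It was 586 without members over 500 protamine and transition protein UMIs, 1137 and 4 at a fold of 1.5 and 4, and 750 with no minimum CPM. It was 125 against the 3 somatic gates, 100 scaled to the median ratio, 135 with barcodes weighted equally, and 892 and 585 under mark 1 and mark 2 alone. At a minimum of 50 UMIs the genes lower than in Sertoli, macrophage and stromal barcodes were 635, 439 and 229. Insl3 was at 3087, 3371 and 3586 CPM at a minimum of 20, 50 and 100 UMIs, 2640 and 1306 CPM in members over and up to 10000 UMIs, and 1989 CPM with barcodes weighted equally. Why these counts moved was not tested. More genes were lower than higher at a minimum of 20, 50 and 100 UMIs, at a fold of 1.5 and with no minimum CPM. No paired analysis was possible because no test was run and each genotype has 1 library. Depth limits genes such as Lhcgr and Nr5a1, whose median was 0 UMIs per member.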
